A study of Mus musculus with 35 samples.

Results

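Genes that carry or release sugars in the small intestine were followed in mice with and without the nuclear receptor PPARα after 4 agonists. The 9 genes were chosen by name: the transporters Slc5a1, Slc5a9, Slc2a1, Slc2a2, Slc2a5 and Slc37a4, and the brush border disaccharidases Sis, Lct and Treh. They were represented by 14 of the 45037 probesets that were not controls. Sis was not analysed here, since the probe table used pairs no probeset with that symbol alone. Of the 14 probesets, 12 had a mean above 32 (log2 5) in at least 1 of the 8 groups and were taken as expressed, out of 15384 on the whole array. Those 12 covered 8 of the 9 genes, out of 8626 expressed genes, and the remaining pair belonged to Slc5a9. Where a gene had several probesets, the expressed one with the highest mean is given unless another is named. All levels are GCRMA estimates on the log2 scale, as deposited, and every difference is a difference of such log2 levels.

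Dietary disaccharides are split by hydrolases anchored in the brush border membrane of enterocytes. Lactase, encoded by Lct, splits lactose, sucrase-isomaltase, encoded by Sis, splits sucrose and isomaltose, and trehalase, encoded by Treh, splits trehalose. Glucose and galactose then enter the cell with sodium through SGLT1 (Slc5a1), and fructose enters through GLUT5 (Slc2a5). SGLT4 (Slc5a9) is a related sodium-dependent carrier that takes mannose and fructose as well as glucose. Sugars leave across the basolateral membrane largely through GLUT2 (Slc2a2), while GLUT1 (Slc2a1) is a carrier found in most tissues. Slc37a4 moves glucose 6-phosphate into the endoplasmic reticulum, where glucose 6-phosphatase releases free glucose.

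Promoter sequence is shown for 4 of the genes because 3 of them, Slc5a1, Slc2a2 and Slc37a4, were those that differed between the genotypes after WY14643, and because Slc37a4 and Lct were among the members whose levels moved most closely together. The sequences are those of RefSeq on GRCm38.p6, which held 10 windows for 8 of the 9 genes, each from 250 bases before to 50 bases after a transcription start. Only the 250 bases before the start are printed, on the strand of the gene. Capitals mark matches, on either strand, to AGGTCA (the hexamer bound by many nuclear receptors), TTTATG (bound by CDX factors), AGATAA (bound by GATA factors) and CACGTG (an E box). The windows lie at chr5:33103969-33104218, plus strand, for Slc5a1, at chr3:28697653-28697902, plus strand, for Slc2a2, at chr9:44396696-44396945, plus strand, for the first of 3 windows of Slc37a4, and at chr1:128328319-128328568, minus strand, for Lct.
Slc5a1: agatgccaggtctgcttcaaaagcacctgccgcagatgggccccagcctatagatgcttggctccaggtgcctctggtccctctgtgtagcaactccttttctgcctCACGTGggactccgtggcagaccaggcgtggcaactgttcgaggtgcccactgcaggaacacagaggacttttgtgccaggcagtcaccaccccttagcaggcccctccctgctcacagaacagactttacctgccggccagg
Slc2a2: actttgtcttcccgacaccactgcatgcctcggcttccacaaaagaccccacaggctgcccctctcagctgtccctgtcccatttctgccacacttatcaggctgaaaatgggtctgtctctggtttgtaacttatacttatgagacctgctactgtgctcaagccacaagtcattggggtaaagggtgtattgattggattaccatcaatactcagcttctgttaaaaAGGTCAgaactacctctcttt
Slc37a4: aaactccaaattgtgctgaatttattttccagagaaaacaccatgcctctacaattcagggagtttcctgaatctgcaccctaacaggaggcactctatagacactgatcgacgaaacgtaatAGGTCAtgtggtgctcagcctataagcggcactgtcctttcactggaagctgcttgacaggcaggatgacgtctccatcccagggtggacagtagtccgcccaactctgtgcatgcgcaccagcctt
Lct: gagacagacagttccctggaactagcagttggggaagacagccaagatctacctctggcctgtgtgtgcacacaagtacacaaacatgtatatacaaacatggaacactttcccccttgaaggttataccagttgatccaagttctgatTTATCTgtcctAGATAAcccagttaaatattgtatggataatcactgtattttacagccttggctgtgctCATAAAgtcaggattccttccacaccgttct
The hexamer AGGTCA was present in the windows of Slc2a2 (starting 21 bases before the start) and Treh (60 bases before and again after the start). Of the 3 windows of Slc37a4, only the first, printed here, held it (127 bases before). The hexamer was in 16.3% of the 32851 promoter windows of the table. Its direct repeat with 1 base between, the arrangement that PPARα and RXR bind together, was in none of the members' windows and in 0.0396% of all windows. The window of Lct held AGATAA 2 times and TTTATG 1 time, against 11.2% and 11.9% of all windows with at least 1 match. TTTATG also occurred in the window of Sis, and CACGTG in that of Slc5a1, against 7.15% of all windows. No 2 matches overlapped, and the windows of Slc2a1 and Slc2a5 held none of these letters. A match describes the sequence only.

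Each array held RNA from the whole small intestine of 1 mouse, and 35 arrays made 8 groups. All mice were males aged 4 months. Wild-type (129S1/SvImJ) and PPARα-null mice (129S4/SvJae) had eaten a modified AIN76A diet with olive oil in place of corn oil, were fasted and were examined 6 h after an oral gavage of 400 µl. The gavage was triolein (OA; 4 wild-type and 4 PPARα-null mice), trieicosapentaenoin (EPA; 5 and 5), tridocosahexaenoin (DHA; 5 and 4) or WY14643, a synthetic PPARα agonist (4 and 4). The genotypes came from different substrains, so PPARα and substrain cannot be told apart. WY14643 was suspended in carboxymethyl cellulose whereas the triacylglycerols were given as oils, so that in any pair with WY14643 the agonist, the vehicle and the absence of a fat load cannot be told apart. Untreated mice were not analysed here. In RNA from a whole organ, fewer cells of a type and less RNA per cell cannot be told apart.

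The arrays were alike in overall level, with medians from 2.83 to 2.88 and 31.6 to 32.4% of the probesets above 32. The 3 probesets of Ppara overlapped between the genotypes, for example 1449051_at at 4.82 to 9.58 in wild-type and 4.32 to 7.83 in PPARα-null mice. Where they lie relative to the deletion is not given in the sources used here, so they do not check the labels. The probeset 1424853_s_at, shared by the Cyp4a10 and Cyp4a31 genes of fatty acid hydroxylases that PPARα induces, read 8.15 to 12.7 on 17 of 18 arrays labelled wild-type and 1.36 to 2.50 on 15 of 17 labelled PPARα-null. The array labelled wild-type EPA replicate 5 read 1.81. Among those labelled PPARα-null, replicate 5 of EPA read 9.91 and replicate 1 of OA read 10.6. These 3 arrays go against their labels, were kept under them, and enter every comparison with EPA or with OA in PPARα-null mice. Values without them are given for members where a call changed, and for some that did not. The summed level of 7 pancreatic acinar markers ran from 223 to 108445 on the linear scale across the arrays, and pancreas had been trimmed from the gut. Markers of enterocytes were expressed in all groups (8 of 8), and those of kidney tubule (3) and erythrocytes (2) were below 32 throughout.

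Group means are given with the SD over mice. In wild-type mice the level of Slc5a1 was 13.06 ± 0.15 after OA, 13.15 ± 0.18 after EPA, 13.22 ± 0.09 after DHA and 13.00 ± 0.10 after WY14643, against 13.20 ± 0.09, 13.36 ± 0.17, 13.46 ± 0.10 and 13.47 ± 0.11 in PPARα-null mice. No neighbouring means in the order of the 8 groups were farther apart than the larger of their SDs, although the ends of the order, wild-type and PPARα-null mice after WY14643, were 0.47 apart. For Slc5a9 the means after OA, EPA, DHA and WY14643 were 6.97 ± 0.21, 6.59 ± 0.42, 6.30 ± 0.34 and 6.96 ± 0.22 in wild-type mice and 7.28 ± 0.35, 6.99 ± 0.57, 7.32 ± 0.53 and 7.71 ± 0.07 in PPARα-null mice. These means covered 1.42, the lowest being wild-type mice after DHA and the highest PPARα-null mice after WY14643, again with no neighbours separated by more than their SDs. The 2 other Slc5a9 probesets had group means from 3.57 to 4.67 and from 3.21 to 4.19 and were not tested. For Slc2a1 the means after OA, EPA, DHA and WY14643 were 8.92 ± 0.36, 9.33 ± 0.27, 9.31 ± 0.20 and 7.69 ± 0.36 in wild-type mice and 8.66 ± 0.47, 9.35 ± 0.17, 8.84 ± 0.51 and 8.23 ± 0.16 in PPARα-null mice. Here the means covered 1.66, the widest range of the 8 genes, and both WY14643 groups formed the lower end.

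In wild-type mice the level of Slc2a2 was 11.34 ± 0.06 after OA, 11.52 ± 0.18 after EPA, 11.28 ± 0.22 after DHA and 11.42 ± 0.21 after WY14643, against 11.56 ± 0.21, 11.54 ± 0.19, 11.67 ± 0.23 and 11.92 ± 0.14 in PPARα-null mice. PPARα-null mice after WY14643 stood above the next group, PPARα-null mice after DHA, by more than the SDs. For Slc2a5 the means after OA, EPA, DHA and WY14643 were 9.39 ± 0.23, 9.90 ± 0.21, 9.63 ± 0.50 and 10.19 ± 0.24 in wild-type mice and 9.55 ± 0.45, 9.95 ± 0.15, 9.93 ± 0.50 and 10.27 ± 0.28 in PPARα-null mice. The 2 OA groups were the lowest and the 2 WY14643 groups the highest for this fructose carrier, with no gap between neighbours beyond their SDs. For Slc37a4 the means after OA, EPA, DHA and WY14643 were 8.92 ± 0.10, 8.98 ± 0.27, 8.92 ± 0.30 and 9.48 ± 0.10 in wild-type mice and 9.25 ± 0.32, 9.20 ± 0.08, 9.50 ± 0.40 and 10.10 ± 0.11 in PPARα-null mice. The order was led by PPARα-null mice after WY14643, whose mean stood above the next, PPARα-null mice after DHA, by more than the SDs. Single values of these groups overlapped, the highest after DHA being 10.06 and the lowest after WY14643 9.96.

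In wild-type mice the level of Lct was 12.11 ± 0.09 after OA, 12.18 ± 0.18 after EPA, 12.05 ± 0.32 after DHA and 12.51 ± 0.04 after WY14643, against 12.30 ± 0.09, 12.43 ± 0.12, 12.48 ± 0.28 and 12.86 ± 0.07 in PPARα-null mice. The WY14643 groups were the highest for lactase, and the PPARα-null group was separated from the wild-type one. For Treh the means after OA, EPA, DHA and WY14643 were 11.20 ± 0.14, 11.40 ± 0.17, 11.41 ± 0.19 and 11.65 ± 0.13 in wild-type mice and 11.01 ± 0.19, 11.31 ± 0.16, 11.29 ± 0.27 and 11.58 ± 0.07 in PPARα-null mice. The WY14643 groups had the highest means for trehalase too, with no gap between neighbours beyond the SDs.

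**Figure D1:**
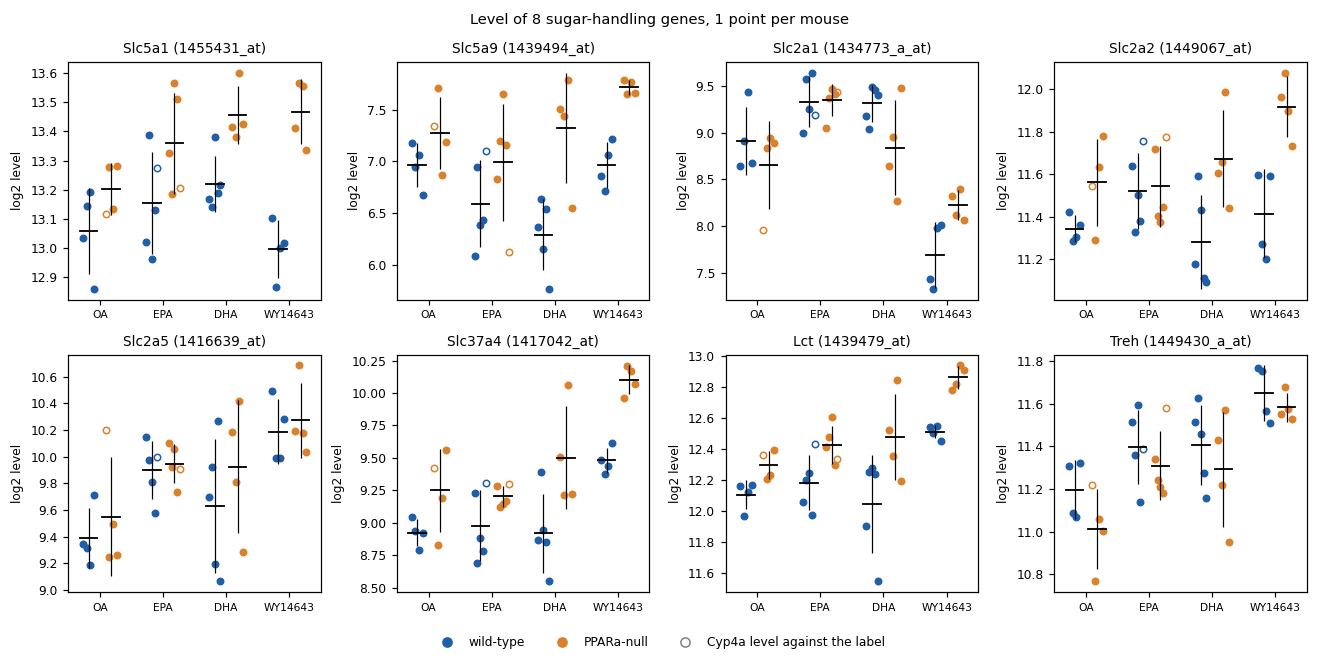
Log2 level of the 8 measured genes (1 panel each, probeset in brackets) by agonist. Each point is 1 mouse, blue for wild-type and orange for PPARα-null, horizontal lines are group means and vertical lines SDs, and open circles are the 3 arrays whose Cyp4a level goes against the label. Blue points lie below orange ones after WY14643 for Slc5a1, Slc5a9, Slc2a1, Slc2a2, Slc37a4 and Lct, and Slc2a1 is lowest after WY14643.

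The comparison of treated wild-type with treated PPARα-null mice asked which genes depend on PPARα after an agonist. After WY14643, 3 of the 8 genes were lower in wild-type mice and none was higher by limma (adjusted p under 0.05). These were Slc5a1, Slc2a2 and Slc37a4, the apical glucose carrier, the basolateral one and the glucose 6-phosphate carrier of the endoplasmic reticulum. Over all expressed genes 3.43% were called lower in wild-type mice in this comparison. The median difference of the 8 genes was -0.49, beside -0.06 over all expressed genes, and 7 of the 8 were below 0, as were 62.4% of all.

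Slc5a1 read 13.10, 12.87, 13.00 and 13.02 in the 4 wild-type mice after WY14643. In PPARα-null mice it read 13.41, 13.57, 13.56 and 13.34. All wild-type values lay below all PPARα-null ones, and the difference was -0.47 (SE 0.09, adjusted p = 0.000585), a level 1.39-fold lower in wild-type mice. The second probeset, 1419057_at, gave -0.35 (SE 0.07, adjusted p = 0.002) and did not overlap either. Slc2a2 read 11.60, 11.27, 11.20 and 11.59 in wild-type and 11.97, 12.08, 11.90 and 11.74 in PPARα-null mice. The groups again did not overlap, and the difference was -0.50 (SE 0.13, adjusted p = 0.0116). Slc37a4 read 9.48, 9.38, 9.44 and 9.61 in wild-type and 9.96, 10.21, 10.17 and 10.07 in PPARα-null mice. Every wild-type value was below every PPARα-null value, with a difference of -0.62 (SE 0.16, adjusted p = 0.0165), or 1.54-fold.

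A further 3 genes had groups that did not overlap after WY14643 without passing the test, so that 6 of the 8 lay wholly lower in wild-type mice, as did 9.26% of all expressed genes on their lead probesets. Lactase (Lct) read 12.54, 12.51, 12.55 and 12.45 in wild-type and 12.78, 12.82, 12.94 and 12.91 in PPARα-null mice, a difference of -0.35 (SE 0.12, adjusted p = 0.088). Slc5a9 read 6.86, 6.71, 7.06 and 7.22 against 7.78, 7.65, 7.77 and 7.66, a difference of -0.75 (SE 0.26, adjusted p = 0.0841). The PPARα-null values of Slc5a9 lay within 0.13 of each other while the wild-type ones were more spread. Slc2a1 differed by -0.54 (SE 0.22, adjusted p = 0.164), with another probeset, 1426600_at, overlapping between the genotypes. For each of these 3 genes, as for the called ones, the exact two-sided permutation test of the lead probeset gave p = 0.0286, the smallest that 4 against 4 mice allow. Groups of this size that do not overlap always give that value, so it adds nothing to the separation already described. Slc2a5 (-0.08, SE 0.23, adjusted p = 0.887) and Treh (0.06, SE 0.12, adjusted p = 0.831) overlapped.

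The calls after WY14643 rested on few mice. Without wild-type replicate 2 only 1 of the 3 genes, Slc5a1, was called, and the adjusted p of Slc2a2 was at most 0.0583 over all single omissions, lost also without wild-type replicate 3. That of Slc37a4 was at most 0.0618, lost also without PPARα-null replicate 3, with a difference of -0.67 to -0.59. Fitted to the WY14643 arrays alone, 5 genes were called, Slc5a9 and Lct being added, and without the 3 arrays that go against their labels 4 were, Slc5a9 being added at -0.75 (adjusted p = 0.0412). Shares of all expressed genes are given here and below for the fit to all arrays only. None was counted under a changed fit, so such counts cannot be set against one. Of 8 enteroendocrine markers, 4 (Chga, Chgb, Gip and Tph1) were lower in wild-type mice as well, beside 3.43% of all expressed genes. Without the 3 arrays that go against their labels, 3 of these markers were lower. The 8 markers had summed levels of 6383 to 8780 in wild-type and 8739 to 10209 in PPARα-null mice, and their part in these results was not tested. None of 8 enterocyte markers was lower, and Fabp1 and Fabp2, the fatty acid binding proteins of enterocytes, were higher in wild-type mice by 0.34 and 0.24.

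After DHA, 5 of the 8 genes were lower in wild-type mice and none was higher, against 3.71% of all expressed genes called lower. They were Slc5a1, Slc5a9, Slc2a2, Slc37a4 and Lct. The median difference of the 8 genes was -0.34, beside -0.01 over all expressed genes. Slc5a9 showed the largest difference, reading 6.36, 6.63, 6.16, 6.54 and 5.77 in the 5 wild-type mice and 7.51, 7.44, 7.78 and 6.55 in the 4 PPARα-null mice. PPARα-null replicate 4 fell among the upper wild-type values, and the other 3 stood above all of them. The difference was -1.03 (SE 0.25, adjusted p = 0.0106), a level 2.04-fold lower in wild-type mice, and on 1426634_at it was -0.87 (SE 0.18, adjusted p = 0.00449).

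Lct read 11.91, 12.25, 12.28, 12.24 and 11.55 in wild-type mice after DHA and 12.52, 12.36, 12.85 and 12.20 in PPARα-null mice. The ranges overlapped, wild-type replicate 5 being the lowest of the 9 and PPARα-null replicate 3 the highest, and the difference was -0.44 (SE 0.12, adjusted p = 0.0222). Slc37a4 read 8.87, 9.39, 8.94, 8.85 and 8.55 in wild-type and 9.50, 9.21, 10.06 and 9.22 in PPARα-null mice. These ranges overlapped too, at a difference of -0.58 (SE 0.16, adjusted p = 0.0228). Slc2a2 differed by -0.39 (SE 0.12, adjusted p = 0.0477), and Slc5a1 by -0.24 (SE 0.07, adjusted p = 0.0357) on 1419057_at against -0.24 (SE 0.08, adjusted p = 0.0941) on its lead probeset. In these same mice Slc2a1 had a difference above 0, 0.47 (SE 0.21, adjusted p = 0.178), which did not pass.

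The 5 calls after DHA were not stable. The count was 1 without wild-type replicate 5, PPARα-null replicate 1 or PPARα-null replicate 3, and 2 without wild-type replicate 1 or 4. Fitted to the DHA arrays alone, no member was called (adjusted p = 0.0709 for Slc5a9, 0.173 for Slc2a2, 0.184 for Slc37a4 and 0.234 for Lct). Wild-type DHA replicate 5 had the lowest level of its group for 6 of the 8 genes, all but Slc5a1 and Slc2a1, and PPARα-null replicate 3 had the highest level of its group for 7, all but Slc2a1. Without the 3 arrays that go against their labels the count stayed at 5.

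After EPA no member was called by limma, and 0% of all expressed genes were called lower. At an unadjusted p under 0.05, 3 members and 1044 of all expressed genes passed. The members were Slc5a1, Slc5a9 on 1426634_at and Lct. On the lead probesets the differences were -0.20 (SE 0.08, adjusted p = 0.482) for Slc5a1, -0.24 (SE 0.11, adjusted p = 0.527) for Lct and -0.40 (SE 0.23, adjusted p = 0.614) for Slc5a9. With the 3 arrays whose Cyp4a level goes against the label left out, they were -0.27 (adjusted p = 0.126), -0.33 (adjusted p = 0.189) and -0.74 (adjusted p = 0.0988), and again none was called. The 95% interval of the difference with all arrays was -0.25 to 0.21 for Slc2a2 and -0.53 to 0.07 for Slc37a4.

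After OA no member was called either, against 0.162% of all expressed genes called lower, and 1 member and 1297 genes in all passed an unadjusted p under 0.05. That member was Slc5a1 on 1419057_at, where the values 12.86, 12.77, 12.84 and 12.92 in wild-type mice lay below 13.14, 12.99, 13.02 and 13.06 in PPARα-null mice, at -0.20 (SE 0.07, adjusted p = 0.251). Of the 8 lead probesets only that of Lct lay wholly lower in wild-type mice after OA, against 2.90% of all expressed genes, and its difference was -0.19 (SE 0.12, adjusted p = 0.595). Without the 3 arrays the difference of Slc2a1 went from 0.26 to 0.03 (adjusted p = 0.978) and that of Slc2a5 from -0.16 to 0.06 (adjusted p = 0.955).

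**Figure D2:**
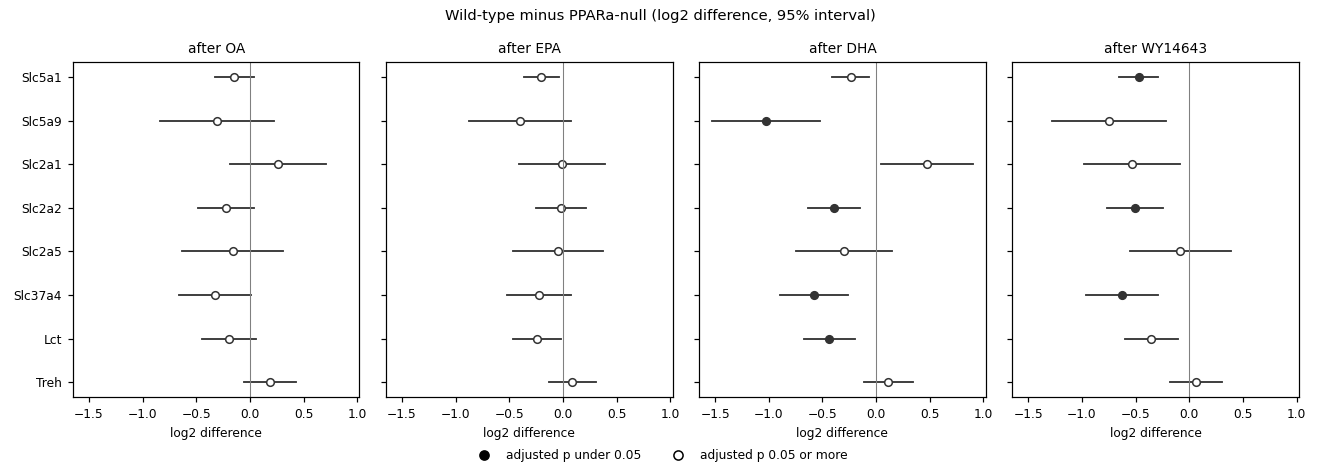
Difference in log2 level between wild-type and PPARα-null mice for the 8 genes (rows, lead probeset) after each agonist (panels). Points are differences from the limma fit over 35 arrays, horizontal lines their 95% intervals, and filled points have an adjusted p under 0.05. Slc5a1, Slc2a2 and Slc37a4 are filled and left of 0 after WY14643, Slc5a9, Slc2a2, Slc37a4 and Lct after DHA, and none after OA or EPA.

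Differences between agonists within a genotype were tested next, which includes mice that lack PPARα. In wild-type mice 7 of the 8 genes differed among the 4 agonists by the moderated F test, all but Slc2a2 (adjusted p = 0.313), against 48.1% of all expressed genes. In PPARα-null mice 6 did, all but Slc2a2 (adjusted p = 0.061) and Slc2a5 (0.0913), against 36.4%. Slc5a1 and Slc5a9 were among them through their second probeset only. The wild-type count was 4 without wild-type OA replicate 2 or 3. Without the 3 arrays the counts were 6 and 7, with no share of all expressed genes counted for that fit. Of the pairs of agonists, those with WY14643 held 15 of the 16 calls in wild-type mice and 14 of the 15 in PPARα-null mice, and the totals without the 3 arrays were again 16 and 15.

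WY14643 against OA gave 5 calls in wild-type mice (33.8% of all expressed genes were called in either direction) and 6 in PPARα-null mice (31.5%). Slc2a5, Slc37a4, Lct and Treh were higher after WY14643 in both genotypes. Slc2a1 was lower in wild-type mice, and Slc5a1 and Slc2a2 were higher in PPARα-null mice. The median difference of the 8 genes was 0.24 in wild-type and 0.50 in PPARα-null mice, beside -0.01 and 0.04 over all expressed genes.

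The fructose carrier Slc2a5 read 9.35, 9.32, 9.19 and 9.71 after OA and 10.49, 9.99, 9.99 and 10.28 after WY14643 in wild-type mice. Every WY14643 value was above every OA value, and the difference was 0.80 (SE 0.23, adjusted p = 0.00976), a 1.74-fold higher level. In PPARα-null mice it read 10.20, 9.25, 9.49 and 9.27 after OA and 10.19, 10.68, 10.17 and 10.04 after WY14643. Here OA replicate 1, an array that goes against its label, lay among the WY14643 values, and the difference was 0.72 (SE 0.23, adjusted p = 0.0211) with it and 0.94 (adjusted p = 0.00501) without the 3 arrays. The PPARα-null call was lost on omission of replicate 2, 3 or 4 of OA or replicate 2 of WY14643, with adjusted p at most 0.0818.

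Slc37a4 read 9.05, 8.94, 8.79 and 8.92 after OA and 9.48, 9.38, 9.44 and 9.61 after WY14643 in wild-type mice, at 0.56 (SE 0.16, adjusted p = 0.0114). In PPARα-null mice the values were 9.42, 8.83, 9.19 and 9.56 after OA and 9.96, 10.21, 10.17 and 10.07 after WY14643, at 0.85 (SE 0.16, adjusted p = 0.000452) or 1.81-fold. The agonist groups did not overlap in either genotype, and the call held at every omission of a single mouse in this pair.

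Lactase showed the same separation. Lct read 12.16, 11.97, 12.12 and 12.17 after OA and 12.54, 12.51, 12.55 and 12.45 after WY14643 in wild-type mice, at 0.41 (SE 0.12, adjusted p = 0.0131). In PPARα-null mice it read 12.36, 12.21, 12.24 and 12.39 and 12.78, 12.82, 12.94 and 12.91, at 0.57 (SE 0.12, adjusted p = 0.00131). Trehalase (Treh) read 11.31, 11.09, 11.07 and 11.32 after OA and 11.77, 11.75, 11.56 and 11.51 after WY14643 in wild-type mice, and 11.22, 10.77, 11.06 and 11.00 and 11.55, 11.68, 11.57 and 11.53 in PPARα-null mice. Both genotypes were without overlap, with differences of 0.45 (SE 0.12, adjusted p = 0.00495) and 0.57 (SE 0.12, adjusted p = 0.000886). For Lct and Treh too, no omission of a single mouse lost the call against OA.

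Slc2a1, the widely expressed glucose carrier, moved the other way. In wild-type mice it read 8.65, 8.91, 9.43 and 8.67 after OA and 7.44, 7.33, 7.98 and 8.01 after WY14643. All 4 values after WY14643 were below all others in wild-type mice, and the difference from OA was -1.23 (SE 0.22, adjusted p = 0.000129), a 2.34-fold lower level. The other 2 probesets gave -1.47 (SE 0.24, adjusted p = 4.61e-05) and -1.23 (SE 0.26, adjusted p = 0.000764). In PPARα-null mice it read 7.95, 8.84, 8.94 and 8.89 after OA and 8.32, 8.13, 8.40 and 8.06 after WY14643, a difference of -0.43 (SE 0.22, adjusted p = 0.152). OA replicate 1, at 7.95, lay below all WY14643 values while replicates 2 to 4 lay above them, and without the 3 arrays the difference was -0.66 (adjusted p = 0.0266) and passed.

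**Figure D3:**
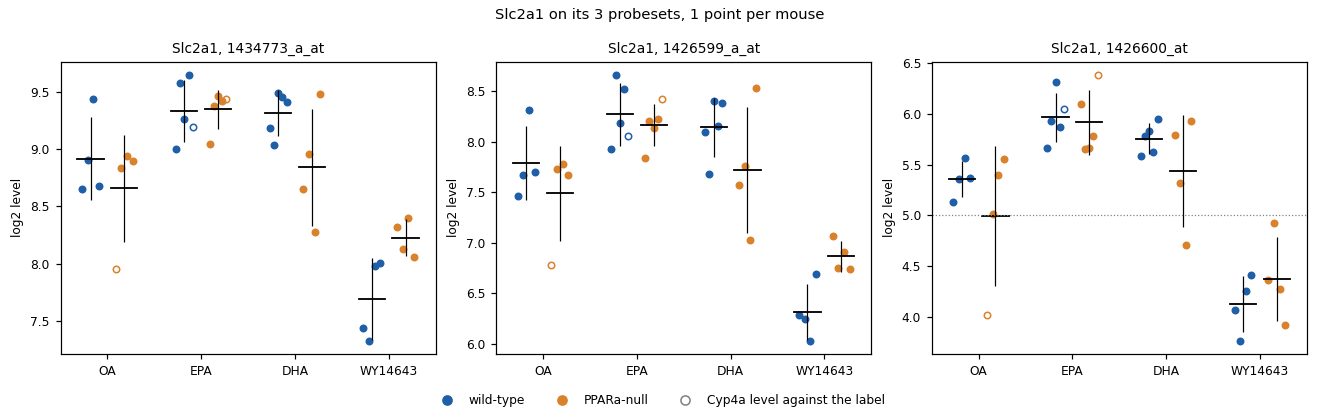
Log2 level of Slc2a1 on each of its 3 probesets (panels) by agonist. Points are single mice, blue for wild-type and orange for PPARα-null, with group means and SDs, open circles are arrays whose Cyp4a level goes against the label, and the dotted line in the right panel is the limit of log2 5. On all 3 probesets the WY14643 groups have the lowest means and the wild-type one lies below the PPARα-null one.

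The apical and basolateral glucose carriers were called against OA in PPARα-null mice alone. Slc5a1 went from 13.12, 13.28, 13.13 and 13.28 after OA to 13.41, 13.57, 13.56 and 13.34 after WY14643 in these mice, at 0.27 (SE 0.09, adjusted p = 0.0281), against -0.06 (SE 0.09, adjusted p = 0.663) in wild-type mice. Slc2a2 went from 11.55, 11.29, 11.64 and 11.78 to 11.97, 12.08, 11.90 and 11.74, at 0.36 (SE 0.13, adjusted p = 0.0386), against 0.07 (SE 0.13, adjusted p = 0.728) in wild-type mice. Slc2a2 did not pass without the 3 arrays, at 0.35 (adjusted p = 0.0563). The lead probeset of Slc5a1 did not pass either, at 0.24 (adjusted p = 0.0687), but 1419057_at did, at 0.26 (adjusted p = 0.0123). By either probeset Slc5a1 was lost without PPARα-null OA replicate 3 or WY14643 replicate 2 (adjusted p at most 0.06). Slc2a2 was lost without any 1 PPARα-null mouse except OA replicate 4 and WY14643 replicate 4 (at most 0.148).

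Some markers of several cell types differed between WY14643 and OA. Over all expressed genes, 33.8% were called in this pair in wild-type and 31.5% in PPARα-null mice. Of 5 expressed markers of the distal small intestine, 3 were lower than after OA in wild-type and 2 in PPARα-null mice. Among them was Slc10a2, the ileal bile acid transporter (-0.97, SE 0.36, adjusted p = 0.0431 and -1.04, SE 0.36, adjusted p = 0.034). Without the 3 arrays that go against their labels, 2 distal markers were lower in each genotype. The summed linear level of the distal markers was 17789 to 23706 after WY14643 and 26379 to 28288 after OA in wild-type mice. In PPARα-null mice it was 17961 to 24615 and 23254 to 26549. The sums of 8 enterocyte markers were 100955 to 104152 after WY14643 against 104716 to 108470 after OA in wild-type mice, and 95125 to 95276 against 97889 to 102606 in PPARα-null mice. All 7 pancreatic acinar markers were lower after WY14643 in PPARα-null mice, where their sums were 2419 to 14829 against 56447 to 108445. None of the 7 was called in wild-type mice, whose sums of 8315 to 39018 and 17593 to 72177 overlapped. Of 3 expressed markers of crypts and dividing cells, Mki67 and Top2a were lower in wild-type mice and Top2a in PPARα-null mice (-0.77, SE 0.13, adjusted p = 5.7e-05 and -0.44, SE 0.13, adjusted p = 0.0119). Their sums were 3791 to 4280 after WY14643 against 4117 to 4402 in wild-type mice, and 4034 to 4515 against 3913 to 4511 in PPARα-null mice.

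Of 8 enteroendocrine markers, Chga, Chgb and Gip were higher and Gcg lower after WY14643 in PPARα-null mice, and Gcg was lower in wild-type mice. Their sums were 8739 to 10209 after WY14643 against 6931 to 8673 in PPARα-null mice, and 6383 to 8780 against 6706 to 9156 in wild-type mice. Of the 8 enterocyte markers, Krt20 was lower in wild-type mice, while in PPARα-null mice Vil1 was higher and Fabp1 (-0.18, SE 0.06, adjusted p = 0.0199) and Fabp2 (-0.12, SE 0.04, adjusted p = 0.0339) were lower. Of 6 goblet cell markers Agr2 was lower in both genotypes and Tff3 higher in PPARα-null mice. Of 6 markers of the proximal small intestine, which include Fabp1, Onecut2 was higher in both genotypes. Lyz1, 1 of 4 Paneth cell markers, was higher in PPARα-null mice, and Acta2, 1 of 5 of smooth muscle, was lower there. Without the 3 arrays the PPARα-null counts were 2 of 8 enteroendocrine markers higher, no goblet cell marker higher and no smooth muscle marker lower. In wild-type mice 1 of 8 enteroendocrine, 1 of 8 enterocyte, 1 of 6 goblet cell and 1 of 6 proximal markers were called. There 2 of 6 proximal markers were higher without the 3 arrays. None of 4 Paneth cell, 5 smooth muscle or 4 immune markers was called there. The share of all expressed genes called was 33.8% in wild-type and 31.5% in PPARα-null mice. The part of these markers in the differences of the sugar genes was not tested.

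WY14643 was also set against the other oils. Against EPA, 4 members were called in wild-type mice (45.1% of all expressed genes): Slc2a1 lower (-1.64, SE 0.21, adjusted p = 6.82e-07), Slc37a4 higher (0.50, SE 0.16, adjusted p = 0.0117), Lct higher (0.33, SE 0.12, adjusted p = 0.0253) and Slc5a9 higher on 1426634_at (0.49, SE 0.18, adjusted p = 0.033). In PPARα-null mice 5 were called (37.8%). Slc2a1 was lower there (-1.12, SE 0.21, adjusted p = 0.00024), and Slc37a4 (0.90, SE 0.16, adjusted p = 0.000127), Lct, Slc2a2 and Slc5a9 were higher. The wild-type call of Lct was lost without wild-type EPA replicate 1 or 4 or WY14643 replicate 1 or 3 (adjusted p at most 0.0786). That of Slc5a9 was lost without wild-type EPA replicate 3 or 4 or WY14643 replicate 1 or 4 (at most 0.0944), and the PPARα-null call of Slc2a2 without WY14643 replicate 2 (0.0654). In PPARα-null mice without the 3 arrays the lead probeset of Slc5a9 did not pass, at 0.51 (adjusted p = 0.0926), but 1426634_at did, at 0.56 (adjusted p = 0.0224). Treh, at 0.34 (adjusted p = 0.0241), passed as well, so that 6 members were called, with no share of all expressed genes counted for that fit.

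Against DHA, 6 members were called in wild-type mice (40.5% of all expressed genes) and 3 in PPARα-null mice (19.9%). Slc2a1 was lower (-1.62, SE 0.21, adjusted p = 2.03e-06) and so was Slc5a1 (-0.22, SE 0.08, adjusted p = 0.0416) in wild-type mice, where Slc5a9, Slc2a5, Slc37a4 and Lct were higher. In PPARα-null mice Slc37a4 (0.60, SE 0.16, adjusted p = 0.0151) and Lct (0.38, SE 0.12, adjusted p = 0.0333) were higher, and Slc2a1 was lower on 1426599_a_at and 1426600_at but not on its lead probeset (-0.61, SE 0.22, adjusted p = 0.0556), which passed at -0.61 (adjusted p = 0.0381) without the 3 arrays. In wild-type mice the call of Slc5a1 was lost without DHA replicate 3, 4 or 5 or WY14643 replicate 2, 3 or 4 (adjusted p at most 0.15). That of Slc2a5 was lost without DHA replicate 1, 3 or 5 or WY14643 replicate 1, 2 or 4 (at most 0.16). Slc5a9 was called at every single omission through 1426634_at (at most 0.00869), though on its lead probeset the adjusted p rose to 0.114. In PPARα-null mice Slc37a4 was lost without DHA replicate 2 or 4 (at most 0.0839), Slc2a1 without DHA replicate 4 (0.0563), and Lct without DHA replicate 1, 2 or 4 or WY14643 replicate 3 or 4 (at most 0.175). All pairs share arrays, so their counts are not independent.

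The 3 oils are triacylglycerols with 3 identical fatty acids each, and differ in the chain length and the number of double bonds of that acid. They were given in the same volume and examined at the same time, so 3 pairs were compared in each genotype. EPA against OA gave no call in wild-type mice (8.01% of all expressed genes were called, and 4 members and 2027 of all 8626 expressed genes had an unadjusted p under 0.05) and 1 in PPARα-null mice (3.15%). That 1 was Slc2a1 on 1426600_at, reading 6.10, 5.65, 5.67, 5.78 and 6.38 after EPA and 4.01, 5.01, 5.40 and 5.55 after OA. Every EPA value was above every OA value, at 0.92 (SE 0.25, adjusted p = 0.0434), and the lead probeset gave 0.69 (SE 0.21, adjusted p = 0.079). OA replicate 1, the lowest of these, is an array that goes against its label, and without the 3 arrays the call was lost, at 0.48 (adjusted p = 0.366) on 1426600_at and 0.43 (adjusted p = 0.374) on the lead probeset. It was lost as well without OA replicate 1 or 2 or EPA replicate 1, 3, 4 or 5 alone (adjusted p at most 0.225).

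DHA against OA gave 1 call in wild-type mice (4.56% of all expressed genes) and none in PPARα-null mice (1.31%, with 2 members and 1445 expressed genes at an unadjusted p under 0.05). Slc5a9 on 1426634_at read 6.63, 6.10, 6.23, 6.02 and 5.65 after DHA and 6.94, 6.75, 6.84 and 6.80 after OA in wild-type mice. All values after DHA were below all values after OA, at -0.71 (SE 0.18, adjusted p = 0.0205), and the lead probeset gave -0.67 (SE 0.25, adjusted p = 0.152). The call was lost without wild-type OA replicate 1, 3 or 4 or DHA replicate 4 or 5 (adjusted p at most 0.0892). In PPARα-null mice the same difference was 0.05 (SE 0.26, adjusted p = 0.961) on the lead probeset.

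DHA against EPA gave no call in either genotype, as for nearly all genes (0.719% of the expressed genes were called in wild-type mice and 0.719% in PPARα-null mice). At an unadjusted p under 0.05 there was 1 member in each, beside 1458 expressed genes in wild-type and 1055 in PPARα-null mice. In wild-type mice it was Slc2a2, with a difference of -0.24 and a 95% interval of -0.47 to -0.01. In PPARα-null mice it was Slc2a1 (-0.51, -0.93 to -0.08). The intervals of the other members allowed differences of either sign, from the narrow one of Slc5a1 in wild-type mice (-0.10 to 0.23) to the wide one of Slc5a9 in PPARα-null mice (-0.17 to 0.83). Such intervals do not show that the oils act alike.

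**Figure D4:**
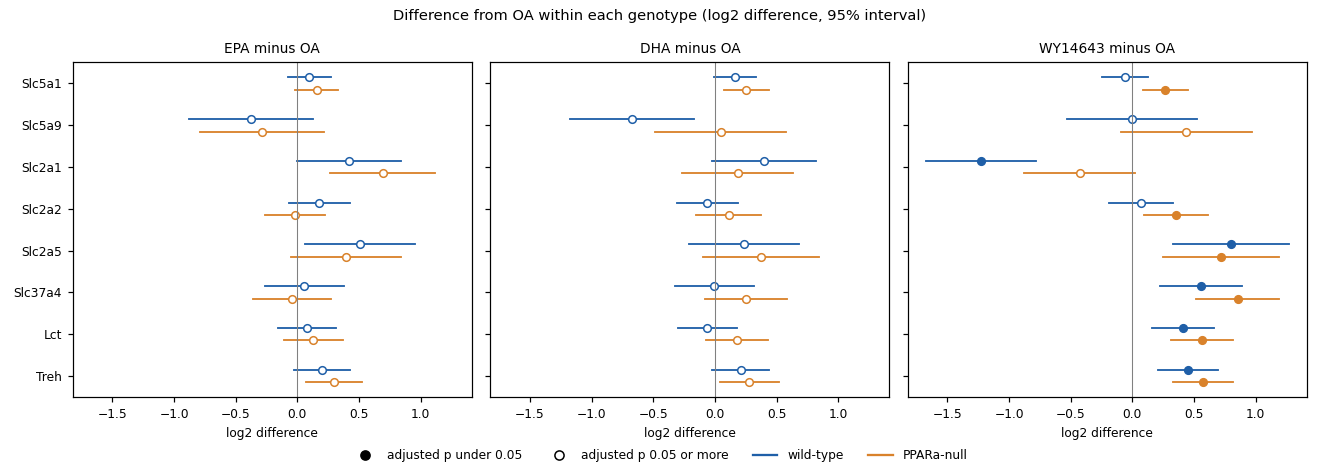
Difference in log2 level from OA after EPA, DHA and WY14643 (panels) for the 8 genes (rows, lead probeset), in wild-type (blue) and PPARα-null mice (orange). Points are limma differences, horizontal lines 95% intervals, and filled points have an adjusted p under 0.05. Filled points occur in the WY14643 panel only, where Slc2a5, Slc37a4, Lct and Treh are right of 0 in both genotypes and Slc2a1 is left of 0 in wild-type mice.

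Whether the agonist differences depended on genotype was tested as an interaction. No member was called by limma, in the F test over the 4 agonists (1.17% of all expressed genes were called) or in any of the 6 pairs. At an unadjusted p under 0.05 there were between 0 and 2 members per pair, beside 682 to 1015 expressed genes. The lowest adjusted p was that of Slc2a1 for WY14643 against DHA, where the difference was -1.01 (95% interval -1.63 to -0.39, adjusted p = 0.171), the fall in wild-type mice being -1.62 and that in PPARα-null mice -0.61. For WY14643 against OA the interaction was -0.80 (SE 0.31, adjusted p = 0.349) for Slc2a1, -0.33 (SE 0.13, adjusted p = 0.344) for Slc5a1 and -0.29 (SE 0.18, adjusted p = 0.715) for Slc2a2. It was 0.08 (SE 0.33, adjusted p = 0.991) for Slc2a5 and -0.12 (SE 0.17, adjusted p = 0.945) for Treh, whose differences in the genotypes were side by side above. Without the 3 arrays the interaction was -0.56 (adjusted p = 0.694) for Slc2a1 and -0.19 (adjusted p = 0.926) for Treh, that of Slc2a5 turned to -0.14 (adjusted p = 0.998), and again no member was called in any pair. The calls for Slc5a1 and Slc2a2 in 1 genotype alone are therefore not shown to differ between genotypes.

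Other hexose carriers were measured from a list of 20, of which 7 were expressed. In wild-type mice WY14643 against OA called 3 of the 7 higher and 1 lower, and in PPARα-null mice it called 4 higher and none lower, where 33.8% and 31.5% of all expressed genes were called in either direction. Slc5a4a and Slc5a4b, genes of the SGLT3 family, were higher in both genotypes. The differences were 2.61 (SE 0.51, adjusted p = 0.000292) and 0.95 (SE 0.36, adjusted p = 0.0443) in wild-type mice, and 2.92 (SE 0.51, adjusted p = 0.00017) and 1.04 (SE 0.36, adjusted p = 0.0309) in PPARα-null mice. Slc5a11, a sodium-dependent inositol carrier, was higher by 1.10 and 0.95. Slc37a2, a relative of Slc37a4, was the only carrier of the list that differed between the genotypes after WY14643 (-1.73, SE 0.28, adjusted p = 5.85e-05, lower in wild-type mice). The median difference of the 7 carriers from OA was 0.47 in wild-type and 0.95 in PPARα-null mice.

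Of 24 expressed genes of hexose metabolism, 8 were higher and 4 lower after WY14643 than after OA in wild-type mice, and 8 were higher and 2 lower in PPARα-null mice. These were 12 and 10 of 24, beside the 33.8% and 31.5% of all expressed genes, and 10 were higher and 2 lower in PPARα-null mice without the 3 arrays. Khk, the fructokinase that acts on fructose entering through Slc2a5, was higher by 0.56 (SE 0.13, adjusted p = 0.00248) and 0.56 (SE 0.13, adjusted p = 0.00303). G6pc, the glucose 6-phosphatase that works with Slc37a4, was higher by 2.54 (SE 0.47, adjusted p = 0.000197) and 2.24 (SE 0.47, adjusted p = 0.00102). Hk2, a hexokinase of glucose use, was lower, at -1.09 (SE 0.23, adjusted p = 0.000572) and -0.76 (SE 0.23, adjusted p = 0.014). Txnip, whose product lowers glucose uptake and whose transcription follows glucose, was higher in wild-type mice (1.24, SE 0.14, adjusted p = 4.09e-07) and differed by 0.36 (SE 0.14, adjusted p = 0.061) in PPARα-null mice, where it passed without the 3 arrays at 0.45 (adjusted p = 0.026). Txnip also differed between the genotypes after WY14643 (0.88, SE 0.14, adjusted p = 7.35e-05).

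Among 14 expressed brush border hydrolases outside the members, Mgam (maltase-glucoamylase) differed from OA after WY14643 by 0.09 (SE 0.09, adjusted p = 0.492) in wild-type and 0.33 (SE 0.09, adjusted p = 0.0057) in PPARα-null mice. In these pairs 4 of the 14 were higher and 1 lower in wild-type mice, and 6 were higher and 1 lower in PPARα-null mice, against 33.8% and 31.5% of all expressed genes called. In PPARα-null mice 5 were higher without the 3 arrays, Tmprss15 being lost. Between the genotypes after DHA, 6 of the 14 were lower in wild-type mice and none was higher, beside 3.71% of all expressed genes lower. After OA and EPA none of the 14 was called between the genotypes, and after WY14643 none was lower and 1, Mep1b, was higher in wild-type mice. With the 3 arrays left out, Dpp4 was lower after EPA (on a second probeset) and after WY14643 too, and Tmprss15 was higher after DHA. Those called after DHA were peptidases: Mep1a (-1.08, SE 0.24, adjusted p = 0.0065), Ace (-1.05, SE 0.22, adjusted p = 0.00449), Xpnpep2, Anpep, Dpp4 and Enpep. The median of the 14 was -0.24, beside -0.01 over all expressed genes. Lct, Slc5a9 and these peptidases were lower in the same mice.

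Of 15 expressed regulators of intestinal and sugar genes, 5 were higher and 3 lower after WY14643 than after OA in wild-type mice, and 2 were higher and 2 lower in PPARα-null mice. That made 8 and 4 of 15, beside 33.8% and 31.5% of all expressed genes, and 3 were higher and 2 lower in PPARα-null mice without the 3 arrays. Mlxipl, which encodes the carbohydrate response factor ChREBP, was higher in both (0.45, SE 0.13, adjusted p = 0.00961 and 0.59, SE 0.13, adjusted p = 0.00144). Cdx1 was higher in both as well, while Gata5 and Mlx were lower in both and Hnf4a was lower in wild-type mice. Cdx2, a factor of intestinal identity, had group means from 3.54 to 4.28 and was not tested. After WY14643 Creb3l3 and Isx were above their PPARα-null levels in wild-type mice (0.52, SE 0.10, adjusted p = 0.000852 and 0.86, SE 0.15, adjusted p = 0.000199).

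Levels of the members were set against all expressed genes over the 35 arrays, as a description. The arrays share groups, so each correlation is given with that of the deviations from group means. The gene most like Slc2a2 among the others was Slc37a4, with r = 0.82 over the arrays and 0.80 for the deviations. Khk was most like Slc2a5 (0.87 and 0.78). Acsl4, an acyl-CoA synthetase, was most like Slc2a1 (0.95 and 0.85), and Acp6, a lysophosphatidic acid phosphatase, most like Treh (0.88 and 0.92). For Slc37a4 it was Cobl (0.94 and 0.81), for Lct H2-T3 (0.94 and 0.86), for Slc5a9 Naip5 (0.88 and 0.79) and for Slc5a1 AW549877 (0.83 and 0.63). Among the members, Slc37a4 and Lct had r = 0.88 (0.63 for the deviations), and Slc2a1 ran against Slc37a4 (-0.65 and -0.54), Slc2a5 (-0.52 and -0.64) and Treh (-0.52 and -0.73).

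**Figure D5:**
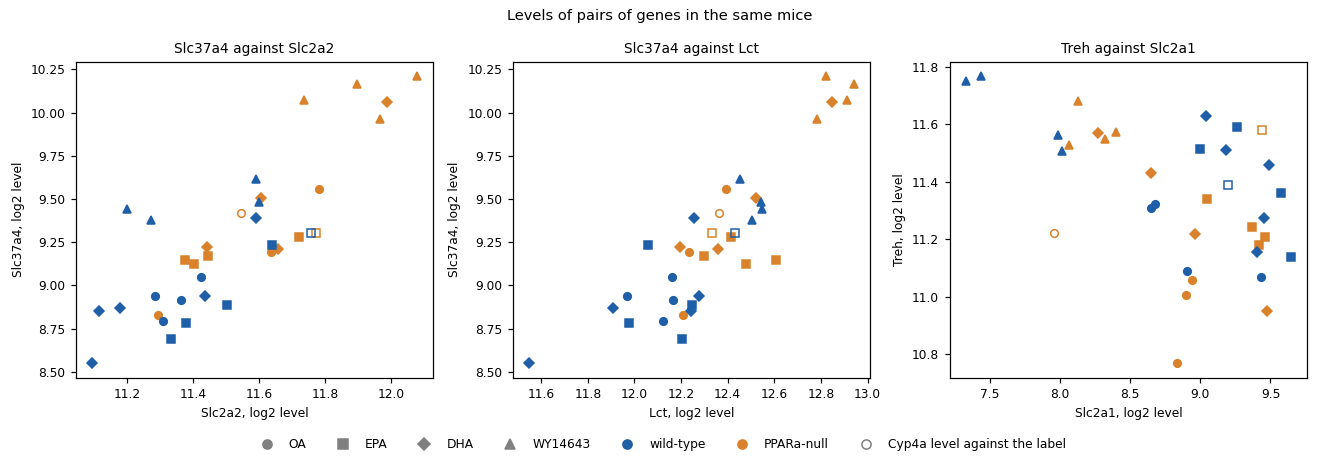
Log2 levels of Slc37a4 against Slc2a2 and against Lct, and of Treh against Slc2a1, 1 symbol per mouse, with colour for genotype and shape for agonist. Open symbols are arrays whose Cyp4a level goes against the label. Slc37a4 goes up with Slc2a2 (r = 0.82) and Lct (r = 0.88), with PPARα-null mice after WY14643 at the upper right, and Treh goes down as Slc2a1 goes up (r = -0.52).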

How the data were processed

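RNA from the small intestine of 35 mice was hybridised to Affymetrix mouse genome arrays, 1 mouse per array. The authors deposited log2 expression values of 45101 probesets, made by GCRMA, a background correction based on probe sequence with quantile normalization and summarisation (version not given in the sources used here). No column was left unmapped. Array medians lay between 2.83 and 2.88, and the number of mice limits the precision. The 64 control probesets were left out.

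Groups followed the sample labels. Probesets with a mean above log2 5 in at least 1 of 8 groups were fitted with limma 3.58.1 in R 4.3.3, as 8 group means with the prior variance allowed to follow intensity. Adjustment of p was by the Benjamini-Hochberg method over every probeset fitted. A gene was called where any probeset had an adjusted p under 0.05. The script was tested on simulated data. Each limma p-value sets differences of group means against the spread between mice within groups, pooled over the 8 groups and moderated.

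All members were named whatever their values. From the other lists, up to 4 called genes with the largest differences were to be named, with Mgam, Slc5a4a, Slc5a4b, Khk, Txnip, Cdx2 and Mlxipl in any case. Fabp1, Slc10a2, G6pc, Slc37a2 and others were named for their role after their values were seen. The members and lists were chosen with earlier results of these data known. Probe names came from the platform annotation, and probesets of several genes were not named. Alternatives were other filters, normalizations, thresholds, models and array sets, and omission of each mouse. Samples sharing a replicate number did not deviate together across agonists: over 17 pairs r ran from -0.44 to 0.55, with 6 above 0.1. The 4 pairs after WY14643 were all above 0, from 0.09 to 0.55. The numbers were not used as pairs, and a replicate block was an alternative.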

Additional observations from a re-analysis of the deposited data

Results flagged for a closer look

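Dixon's criterion was applied to each of 12 expressed probesets in each of 8 groups, 96 sets of values that are not independent. In 3 of the 96, 1 array stood apart from the rest of its group. Chance alone gives this in about 1 in 20 sets, a larger share than was seen. All 3 were Slc2a1 in PPARα-null mice. On 1434773_a_at the array labelled PPARα-null OA replicate 1 read 7.95 while the others lay between 8.84 and 8.94, and on 1426599_a_at the same array read 6.79 while the others lay between 7.67 and 7.78. That array is 1 of the 3 whose Cyp4a level goes against the label. On 1434773_a_at PPARα-null EPA replicate 1 read 9.05 while the others lay between 9.37 and 9.46.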

How the results depend on the processing

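No called difference of a lead probeset changed sign under any alternative. Other probesets, on which some calls rest, were followed singly only without the 3 arrays and, for the calls, at each omission of a mouse. Over the other filters, normalizations, models and array sets tried for the lead probesets of single members, 1621 values kept their side of the threshold, 17 newly passed it and 26 no longer did. The count of members called between genotypes after DHA, 5, became 3 without a filter on the level, 3 without the intensity trend, 1 at an adjusted p under 0.01 and 0 when only the groups compared were fitted. After WY14643 the count of 3 became 6 with array weights, 5 at an unadjusted p under 0.01, 1 at an adjusted p under 0.01 and 5 when only the groups compared were fitted. After OA it became 1 at an unadjusted p under 0.01. The interaction gave 1 member by the F test and 1 call over pairs with array weights, and 2 over pairs at an unadjusted p under 0.01. At an adjusted p under 0.01 the F test in wild-type mice called 3, and the pairs gave 8 calls in wild-type and 8 in PPARα-null mice. Shares of all expressed genes were not counted under the alternatives, and the causes were not tested.

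Omitting each mouse gave 0 to 0 members after OA and EPA, 1 to 6 after DHA and 1 to 3 after WY14643. It gave 4 to 7 for the F test in wild-type and 5 to 8 in PPARα-null mice, 13 to 17 and 12 to 19 calls over pairs, and 0 to 0 for the interaction. With the replicate block the genotype counts were 0 after OA, 0 after EPA, 5 after DHA and 3 after WY14643, the F tests called 6 and 5, the interaction 0, and the pairs gave 14 and 15 calls. Signal close to the limit, as for Slc5a9 and 1426600_at of Slc2a1, leaves differences there less certain.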
